A study of Mus musculus with 69 samples.

Results

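Fibroblast growth factor (FGF) ligands and their receptors were followed in mES cells and in cells sorted from mosaic gastruloids, aggregates of mES cells that pattern themselves like parts of the early embryo. The genes were taken by symbol from the table of counts, and all 10 were found among its 55367 symbols: the ligands Fgf3, Fgf4, Fgf8, Fgf15, Fgf17 and Fgf18, and the receptors Fgfr1, Fgfr2, Fgfr3 and Fgfr4. Bulk RNA sequencing covered 69 libraries, which are 3 replicates of each of 23 groups, and every gene of the family had counts in all 69. The comparisons ask how mutant cells differ from WT cells that carry the same colour, and how WT cells differ with the neighbour they grow beside.

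All lines derive from E14tg2A mES cells, and each line is 1 clone. WT–mCherry cells carry H2B–mCherry under the EF1α promoter, and WT–emiRFP cells carry H2B–emiRFP670 under the CAG promoter. The p53KO–emiRFP line is a daughter clone of WT–emiRFP with a frameshift in Trp53, the gene of p53, so effects of the genotype and of the clone cannot be told apart. The 0 h groups are the 3 lines as mES cells in serum with LIF. WT + WT gastruloids were seeded from 150 WT–mCherry and 150 WT–emiRFP cells, and WT + p53KO gastruloids from 150 WT–mCherry and 25 p53KO–emiRFP cells, so the kind and the number of seeded neighbours differ together. After 0 h WT–emiRFP and p53KO–emiRFP cells also come from these different kinds of gastruloid, seeded with different numbers of their own cells, and this cannot be told apart from the genotype either. Gastruloids were pooled and sorted by colour at 48, 72, 96, 120 and 144 h. The Wnt agonist CHIR was given from 48 to 72 h, so cells sorted at 48 h had not received it. The 4 sorted populations are WT–mCherry and WT–emiRFP cells of WT + WT gastruloids, and WT–mCherry and p53KO–emiRFP cells of WT + p53KO gastruloids. In such bulk samples, fewer cells that express a gene and less RNA per cell cannot be told apart.

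FGFs are secreted proteins that bind receptor tyrosine kinases on the cell surface together with heparan sulphate chains, and the bound receptors signal through Ras, Raf and MEK to ERK. Cells answer with transcription factors of the Etv family and with inhibitors such as Sprouty proteins and dual-specificity phosphatases, which restrain the same pathway. In mES cells Fgf4 acts through ERK to prime cells for differentiation. In the gastrulating embryo Fgf8 and Fgf4, with Fgfr1, are needed for mesoderm migration and for growth of the tail end of the body.

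Levels are normalized counts, the deposited counts divided by median-of-ratios size factors. Library totals ranged from 26722541 to 72981570 counts with a median of 53098728, and the lowest raw count of any member in any library was 11, for Fgf8. Trp53 had 1506 to 2589 normalized counts in the p53KO–emiRFP groups and 13902 to 27511 in the WT groups. A gene was called when its adjusted p in edgeR's quasi-likelihood test was below 0.05, with adjustment over all genes tested. Such p-values rest on the spread between the 3 replicates within a group, estimated jointly over all groups of a fit. They do not measure the spread between clones of a genotype. Differences are log2 fold changes ± standard error, and the levels of a group are given for replicates 1, 2 and 3 in this order.

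Fgf3, Fgf4 and Fgf15 lie in a row on the plus strand within 62.9 kb of chromosome 7 (GRCm38, 144838083 to 144900953). The other ligands were annotated elsewhere in GRCm38, with Fgf8 at chr19:45736798-45742915, Fgf17 at chr14:70636203-70642268 and Fgf18 at chr11:33117430-33147400, all on the minus strand. Of the receptors Fgfr1 at chr8:25513654-25575718, Fgfr3 at chr5:33721674-33737068 and Fgfr4 at chr13:55152640-55168759 lie on the plus strand and Fgfr2 at chr7:130162451-133123350 on the minus strand. Sequence around the start was at hand for 6 of the 10 members. For 4 members the bases before the RefSeq start are shown in transcript direction, on GRCm38.p6, up to the first base that the annotation gives as exon. Those of Fgf3 and Fgf4 lie inside the annotated gene span, which longer transcripts extend upstream. Fgf3 and Fgf4 are shown because these neighbours fell and rose together between 48 and 96 h, Fgf18 because it differed most between genotypes at 144 h, and Fgfr4 because it was lower in p53KO–emiRFP cells at every gastruloid time point.
Fgf3, chr7:144838362-144838594, plus strand: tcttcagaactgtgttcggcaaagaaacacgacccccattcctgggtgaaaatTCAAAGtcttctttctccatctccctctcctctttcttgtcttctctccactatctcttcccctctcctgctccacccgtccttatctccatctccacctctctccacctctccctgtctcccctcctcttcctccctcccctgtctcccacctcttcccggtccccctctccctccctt
Fgf4, chr7:144861136-144861385, plus strand: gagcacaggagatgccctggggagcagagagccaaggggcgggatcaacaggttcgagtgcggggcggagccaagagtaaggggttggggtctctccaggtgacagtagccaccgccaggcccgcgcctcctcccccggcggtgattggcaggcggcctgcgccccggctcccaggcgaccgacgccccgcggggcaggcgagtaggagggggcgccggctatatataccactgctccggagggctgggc
Fgf18, chr11:33147401-33147650, minus strand: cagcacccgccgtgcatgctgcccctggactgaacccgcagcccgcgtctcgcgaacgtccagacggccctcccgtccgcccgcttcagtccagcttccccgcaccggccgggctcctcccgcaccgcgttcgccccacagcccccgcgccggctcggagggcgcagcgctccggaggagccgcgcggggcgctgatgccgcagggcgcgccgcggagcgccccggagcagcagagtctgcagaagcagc
Fgfr4, chr13:55152568-55152639, plus strand: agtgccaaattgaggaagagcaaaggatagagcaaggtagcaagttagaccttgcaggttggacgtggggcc
The capitals in Fgf3 mark CTTTGA on the opposite strand, the core motif of TCF/LEF factors. Both strands of windows of 300 bases were searched for CTTTGA, for AGGTGTGA, a T-box motif, for CCGGAAG, an ETS motif, and for the p53 decamer motif. These were held by 16.0%, 1.28%, 8.86% and 8.36% of 32851 promoters, and the match in Fgf3 was the 1 match in the 7 windows of the members. The other windows do not hold these letters, which says nothing of the factors.

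Fgf8, a ligand of the primitive streak and tailbud, rose between 48 h, before the Wnt pulse, and 72 h. In the 6 WT libraries at 0 h it had 22.7 to 59.8 normalized counts with a median of 29.4, and in the 9 WT libraries at 72 h it had 1957 to 3550.4 with a median of 2342. It was highest at 96 h with 4528 to 6623, and the 9 libraries of 144 h had 129 to 287. In WT cells Fgf8 rose by 4.80 ± 0.11 from 48 to 72 h (adjusted p = 1.1e-40) and fell by 2.82 ± 0.10 from 120 to 144 h (adjusted p = 7.9e-31).

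Fgf17 and Fgf18, the closest relatives of Fgf8, followed other courses. Both were present in mES cells, where the WT libraries had 1479 to 2380.5 normalized counts of Fgf17 and 185 to 394 of Fgf18. By 48 h these were 63.6 to 115 and 15.7 to 35.2, with no overlap. Fgf17 fell by 4.31 ± 0.10 (adjusted p = 1.55e-40) and Fgf18 fell by 3.37 ± 0.18 (adjusted p = 1.17e-24). Fgf17 was back at 1285 to 1996 at 96 h. Fgf18 came last, with 61.7 to 116 at 96 h and 303 to 916 at 120 h, and had 25.2 to 135 at 144 h.

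The 3 neighbours on chromosome 7 were all lower at 72 h than at 48 h and higher again at 96 h in WT cells. Fgf4, the main ligand of mES cells, had 9476 to 13157 normalized counts in WT libraries at 0 h, 460.2 to 1032 at 72 h and 4070.5 to 5457 at 96 h. Fgf15, known from the neural tube and the intestine, went from 918 to 1045 at 48 h to 128 to 239 at 72 h and to 1599.8 to 1936 at 96 h. Fgf3, which acts in the tailbud and the inner ear, changed most, from 19.7 to 40.2 at 72 h to 2496 to 3379 at 96 h. It rose by 6.72 ± 0.13 (adjusted p = 1.89e-44). In p53KO–emiRFP cells the same step of Fgf3 was from 49.7, 34.7 and 50.4 to 2397, 2268 and 2803. After 96 h the genes parted in WT cells. Fgf3 had 48.7 to 91.8 and Fgf15 65.0 to 123 at 144 h, while Fgf4 had 2774 to 5404. Antisense genes overlap exons of Fgf15, Fgfr1 and Fgfr3, and whether the counting used strand is not given in the sources used here, so reads of these partners may be included.

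**Figure D1:**
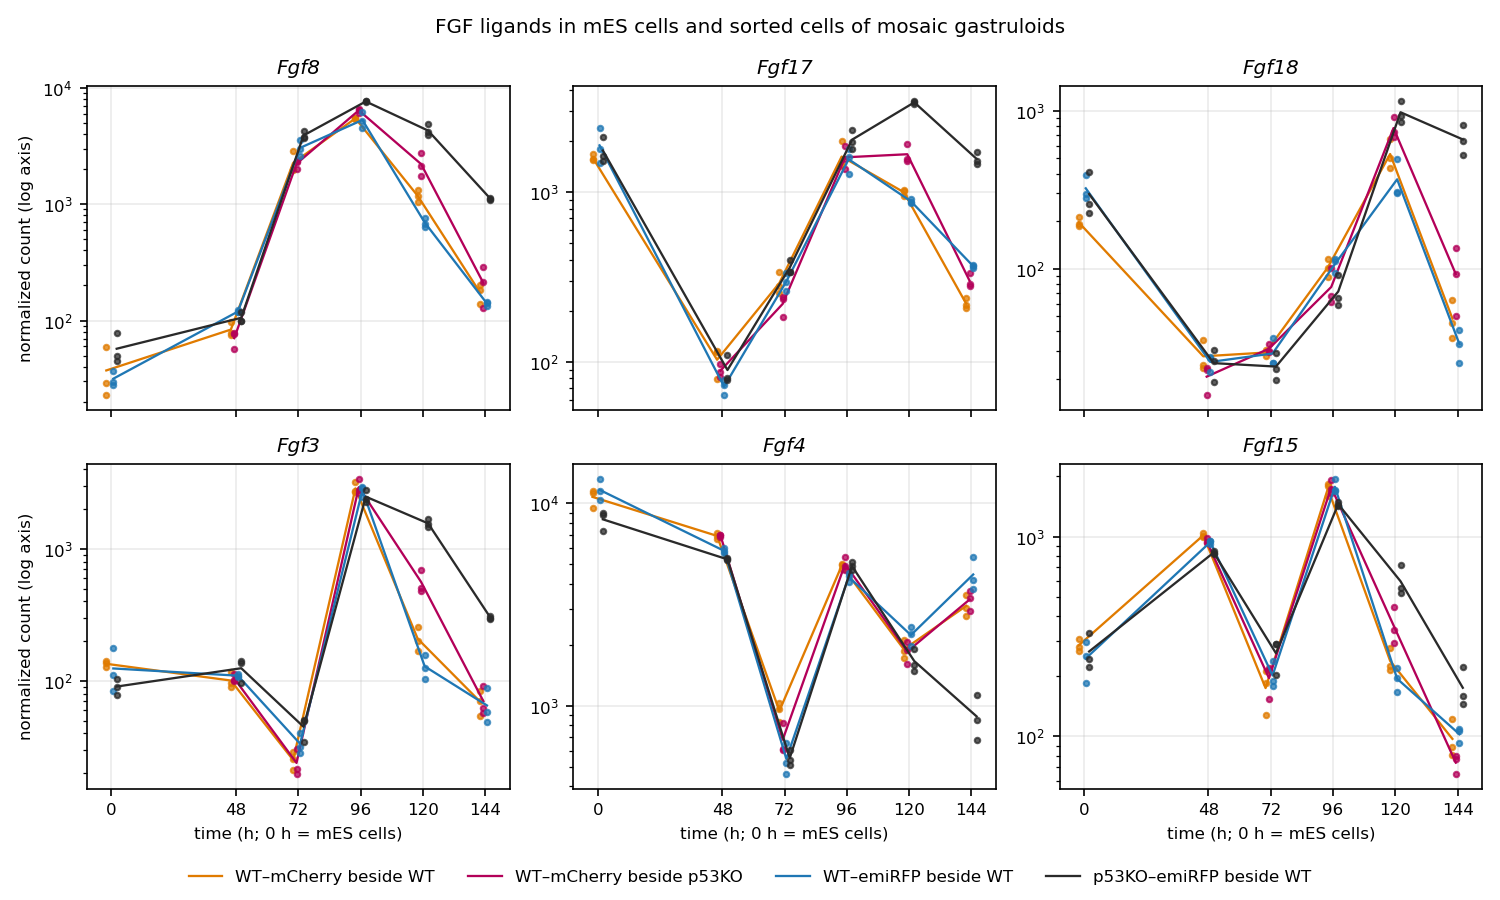
Normalized counts (log axis) of the 6 FGF ligands against time in hours, with 0 h for mES cells; points are libraries and lines join group means of the sorted populations. Fgf3, Fgf4 and Fgf15 dip at 72 h and return at 96 h, and at 144 h p53KO–emiRFP libraries lie above WT–emiRFP libraries for 5 ligands and below them for Fgf4.

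Among the receptors, Fgfr1, which mesoderm of the embryo needs, had the highest counts throughout. It had 5795 to 7534 normalized counts in WT libraries at 0 h, 14774 to 17219 at 96 h and 8055 to 10402 at 144 h. Fgfr2, a receptor of many epithelia, ran the other way, with 1341 to 1708 at 0 h, 339 to 420.0 at 96 h and 3106 to 4783 at 144 h. It rose by 2.47 ± 0.05 from 96 to 120 h (adjusted p = 3.26e-42). Fgfr3 was low at 48 h with 42.3 to 65.1 and reached 329 to 747 at 144 h. Medians of Fgfr4 over the WT libraries ran from 118 at 96 h to 216 at 72 h. An annotated read-through transcript joins Fgfr2 to an exon of Ctbp2, so counts of Fgfr2 may include reads of that exon.

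**Figure D2:**
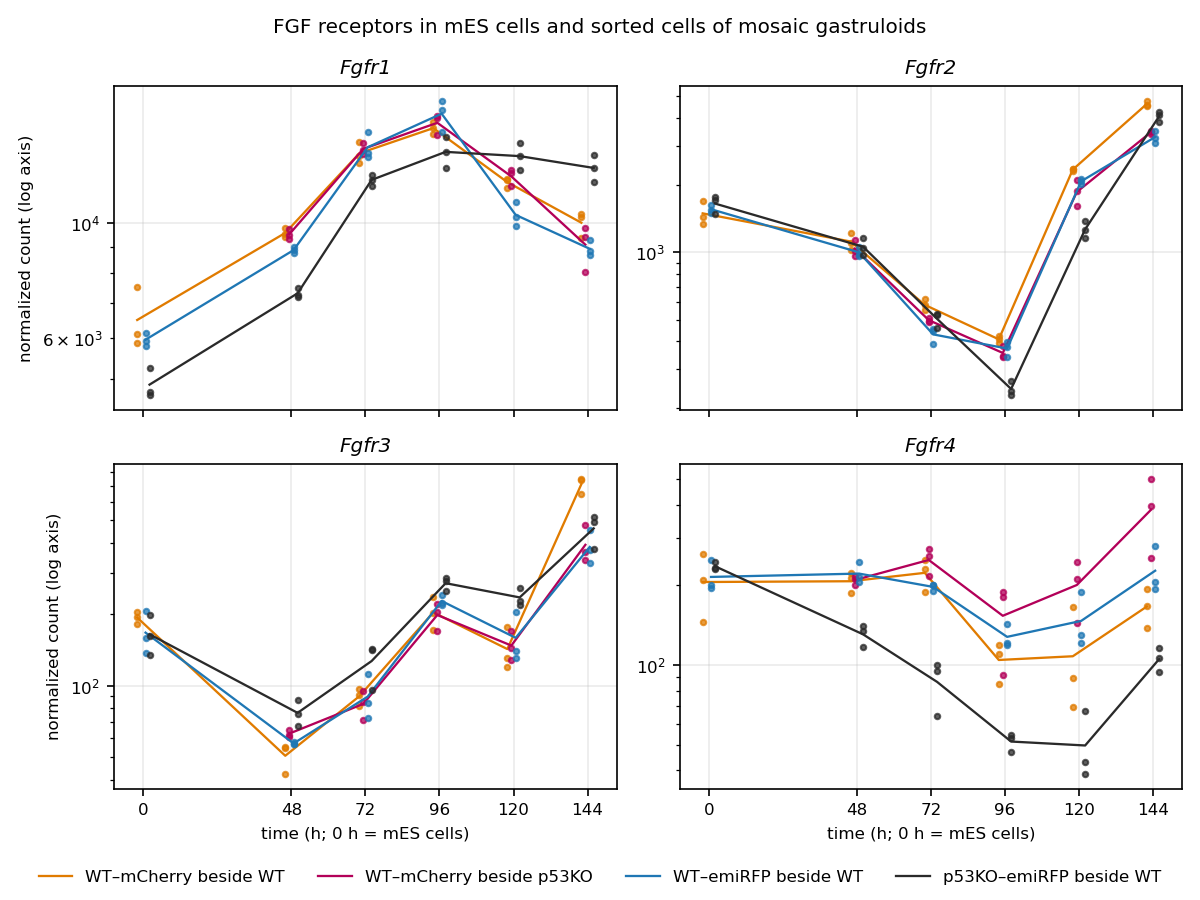
Normalized counts (log axis) of the 4 FGF receptors against time in hours, with 0 h for mES cells; points are libraries and lines join group means of the sorted populations. Fgfr1 is highest and Fgfr2 lowest at 96 h, and Fgfr4 of p53KO–emiRFP cells lies below that of WT–emiRFP cells from 48 h on.

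In WT cells 9, 8, 10, 9 and 10 of the 10 members were called in the steps to 48, 72, 96, 120 and 144 h, against 70.3%, 66.9%, 58.6%, 56.8% and 55.4% of all genes tested. In p53KO–emiRFP cells 9, 8, 10, 7 and 9 were called, against 59.5%, 46.4%, 44.5%, 34.9% and 22.7%. From 72 to 96 h all 6 ligands rose in both genotypes. From 96 to 120 h Fgf17 differed by -0.49 ± 0.08 in WT cells (adjusted p = 2.95e-07) and by 0.73 ± 0.13 in p53KO–emiRFP cells (adjusted p = 9.15e-06). The WT value pools all sorted WT populations, which did not move alike. Mean Fgf17 dropped where the neighbours were WT, to 884 after 1563 (WT–emiRFP) and to 999 after 1620 (WT–mCherry). Beside p53KO cells, WT–mCherry means were 1604 at 96 h and 1672.5 at 120 h, with overlapping ranges. From 120 to 144 h Fgf4 rose by 0.85 ± 0.07 in WT cells (adjusted p = 9.04e-15) and fell by 0.91 ± 0.13 in p53KO–emiRFP cells (adjusted p = 2.81e-07). The difference between genotypes in these 2 steps was not tested.

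Per kilobase of exon, the scale on which levels of different genes can be set side by side, Fgfr1 held 68.2% ± 0.849 (SD, n = 3) of the RNA of the 4 receptors in WT–emiRFP cells at 144 h and 94.3% ± 0.145 at 72 h. In p53KO–emiRFP cells its share was 72.4% ± 1.61 and 93.8% ± 0.461. Among the 6 ligands the leading one changed with time. The shares leave out the 12 other secreted FGFs, which summed to 4169 to 4698 normalized counts in WT–emiRFP cells at 48 h and 2198 to 3263 at 72 h. In WT–emiRFP cells Fgf4 held 70.8% ± 2.18 of the RNA of these 6 at 0 h and 72.8% ± 0.420 at 48 h. Fgf8 then led with 81.5% ± 2.07 at 72 h and 45.6% ± 2.29 at 96 h, and Fgf4 led again with 32.9% ± 4.70 at 120 h and 76.8% ± 3.53 at 144 h. At 120 h Fgf8 led in the other 3 populations, with 41.9% ± 2.47 in p53KO–emiRFP cells, 37.5% ± 4.19 in WT–mCherry cells beside p53KO and 31.5% ± 1.86 in those beside WT cells. At 144 h Fgf4 led in both WT–mCherry populations, with 69.5% ± 6.55 beside p53KO and 72.6% ± 2.59 beside WT cells. In p53KO–emiRFP cells Fgf17 led then with 32.9% ± 1.97, and Fgf4 held 10.3% ± 2.35. The summed level of the 6 ligands at 120 h was 7555 ± 546 normalized counts per kilobase in p53KO–emiRFP and 2248 ± 110.2 in WT–emiRFP cells.

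**Figure D3:**
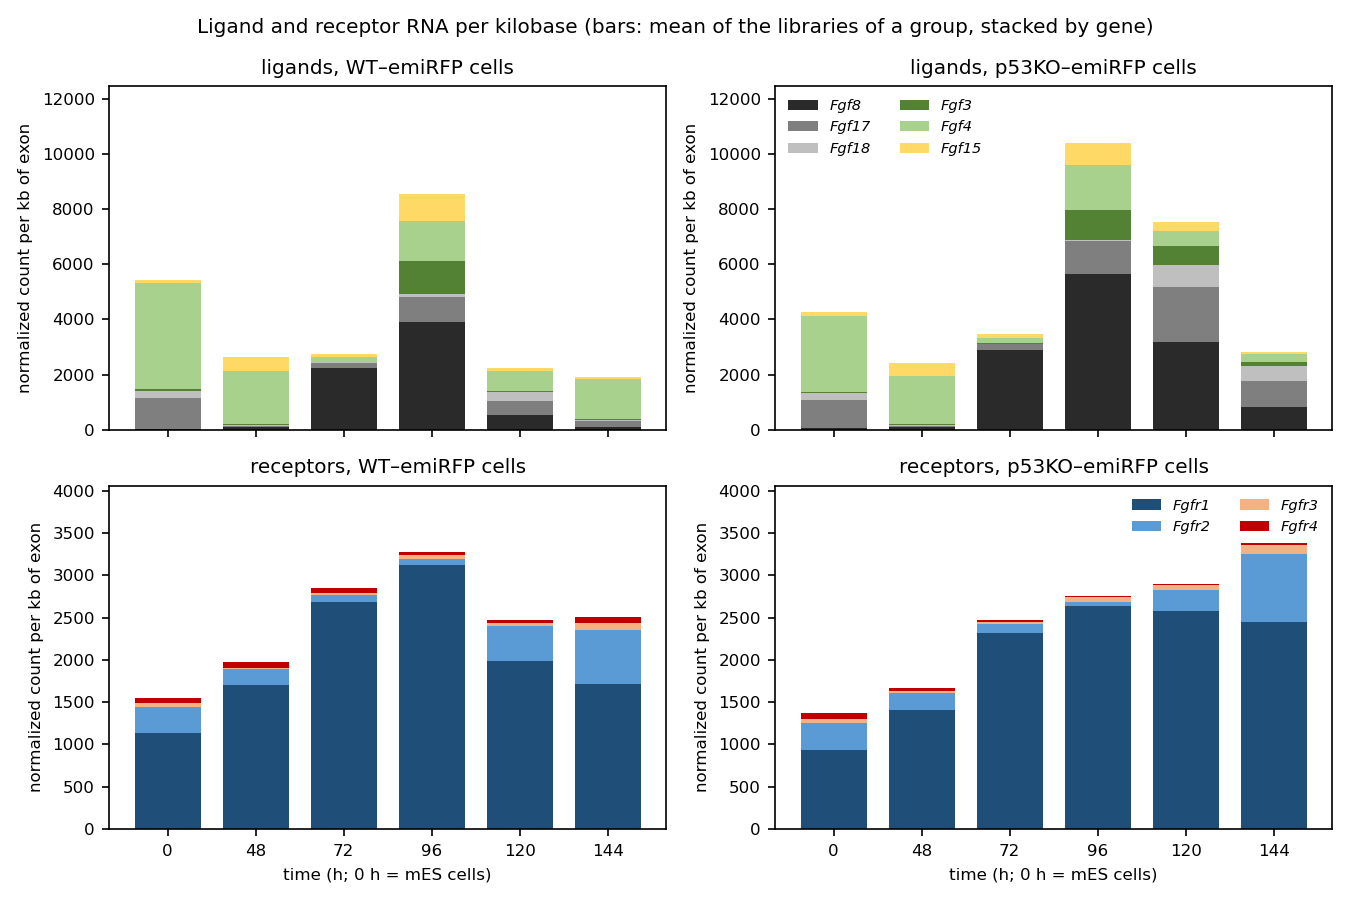
Normalized counts per kilobase of exon of the ligands and receptors in WT–emiRFP and p53KO–emiRFP cells against time in hours; stacked bars are means of 3 libraries. Fgf4 makes up most of the ligand bar of WT–emiRFP cells at 144 h, and Fgf17, Fgf8 and Fgf18 make up most of that of p53KO–emiRFP cells.

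At the earlier times the members called between p53KO–emiRFP and WT–emiRFP cells varied with the fit. Without the replicate block, of the 10, 1, 4, 2 and 5 were called at 0, 48, 72 and 96 h, against 6.13%, 22%, 29.1% and 23.3% of all genes. At 0 h this was Fgf4, with 8959.5, 8756 and 7273 normalized counts in p53KO–emiRFP and 13157, 11468 and 10343 in WT–emiRFP mES cells (-0.48 ± 0.11, adjusted p = 0.0221). Without replicate 2 it lost its call. At 48 h Fgf15 (-0.17 ± 0.06), Fgf4 (-0.14 ± 0.04), Fgfr1 (-0.28 ± 0.04) and Fgfr4 were lower, and Fgf15 and Fgf4 lost their calls whichever replicate was left out. At 72 h Fgfr1 (-0.21 ± 0.05) and Fgfr4 were lower, and Fgfr1 lost its call without replicate 1 or replicate 2. At 96 h Fgf8 was higher, with 7498, 7616 and 7725 against 4528, 6146 and 5159.9 (0.53 ± 0.08, adjusted p = 0.000218). Fgfr2 was lower at that time, with 266, 238 and 229 against 395, 377 and 341 (-0.60 ± 0.09, adjusted p = 0.000251). Both pairs of groups were separate, and so were those of 9 members in all at 96 h. The share of all genes with separate ranges was not determined, so this count is no result about the members. Fgf15 (-0.29 ± 0.07) lost its call without replicate 1 or 2, and Fgfr1 (-0.25 ± 0.06) without replicate 3.

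With the replicate number as a block, 7 members were called at 72 h and 9 at 96 h. The block added Fgf15 (0.37), Fgf17 (0.27), Fgf8 (0.35), Fgfr2 (0.23) and Fgfr3 (0.52) at 72 h. At 96 h it added Fgf17 (0.39), Fgf4 (0.18), Fgf18 (-0.57) and Fgf3 (-0.17). It also added Fgfr3 at 48 h (0.43, adjusted p = 0.0391) and 144 h (0.26, adjusted p = 0.0362), and Fgfr4 in the step of p53KO–emiRFP cells from 48 to 72 h (-0.59, adjusted p = 0.0176).

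Fgfr4, a receptor with weaker kinase activity than the other 3, was lower in p53KO–emiRFP cells at every gastruloid time point. At 0 h it had 245, 229.8 and 232 normalized counts in p53KO–emiRFP and 248, 201 and 195 in WT–emiRFP cells, and the groups overlapped. At 72 h it had 64.0, 99.6 and 95.2 against 190.2, 201 and 199.6, and at 120 h 38.8, 67.0 and 43.1 against 129, 189 and 121. The ranges were separate at 48, 72, 96, 120 and 144 h. From 48 to 144 h the differences were -0.77 ± 0.11, -1.18 ± 0.16, -1.31 ± 0.24, -1.55 ± 0.33 and -1.10 ± 0.23 (edgeR, adjusted p = 0.000155, 7.05e-05, 0.0012, 0.00137 and 0.000861). The call at 96 h was lost without replicate 1.

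At 120 h all 10 members were called, 7 higher and 3 lower in p53KO–emiRFP cells, against 51% of all genes. Every member's ranges were separate, but the share of all genes with separate ranges was not determined. Fgf3 had 1466, 1683 and 1539 normalized counts in p53KO–emiRFP and 158, 126 and 103 in WT–emiRFP cells (3.60 ± 0.19, adjusted p = 3.35e-09). Fgf8 had 4123, 4831 and 3890.5 against 766, 639 and 681 (2.62 ± 0.15, adjusted p = 7.09e-09), and Fgf17 had 3283, 3454 and 3399.8 against 915, 863 and 874 (1.93 ± 0.08, adjusted p = 4.95e-10). These 3 ligands had no library of one group near the other. Fgf15 had 519, 722 and 551 against 221, 196 and 166 (1.62 ± 0.18, adjusted p = 3.44e-06), and Fgf18 had 850.2, 929 and 1158 against 494, 303 and 307 (1.41 ± 0.20, adjusted p = 4.27e-05). Fgf4 was lower, with 1482, 1915 and 1582 against 1976, 2265 and 2454 (-0.43 ± 0.12, adjusted p = 0.00684), and lost its call without replicate 3 (adjusted p = 0.132).

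Among the receptors Fgfr4, given above, differed most at 120 h. Fgfr1 had 12645, 13449 and 14289 against 10264, 9867 and 10965 (0.38 ± 0.06, adjusted p = 9.05e-05), and Fgfr2 had 1258, 1162 and 1386 against 2086, 2019.7 and 2141 (-0.72 ± 0.09, adjusted p = 1.17e-05). Fgfr1 was thus higher and Fgfr2 lower in each p53KO–emiRFP library than in any WT–emiRFP library. Fgfr3 had 229, 259 and 219.8 against 141, 205 and 131 (0.57 ± 0.19, adjusted p = 0.0197), and lost its call without replicate 1 (adjusted p = 0.179) or replicate 3 (adjusted p = 0.0904).

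At 144 h 9 members were called, 7 higher and 2 lower, against 65.3% of all genes. Fgf18 differed most, with 808, 523 and 644 normalized counts in p53KO–emiRFP and 41.0, 33.5 and 25.2 in WT–emiRFP cells (4.31 ± 0.32, adjusted p = 5.33e-08). Fgf8 had 1137, 1093 and 1110.5 against 145, 141 and 134 (2.99 ± 0.22, adjusted p = 3.62e-08), and Fgf17 had 1462, 1532 and 1720.5 against 366, 359.7 and 375 (2.10 ± 0.10, adjusted p = 6.56e-10). All 3 genes of the Fgf8 subfamily were thus above WT–emiRFP cells in each library. Fgf3 had 293, 302 and 311 against 57.8, 88.9 and 48.7 (2.22 ± 0.22, adjusted p = 9.91e-07), and Fgf15 had 159, 221 and 145 against 92.4, 107 and 109 (0.77 ± 0.19, adjusted p = 0.00283). Fgf4, their neighbour on chromosome 7, went the other way, with 675, 847 and 1134 against 3750.2, 4190.2 and 5404 (-2.33 ± 0.18, adjusted p = 5.47e-08). Fgfr1 and Fgfr2 were higher by 0.52 ± 0.07 and 0.31 ± 0.06. Fgfr3 differed by 0.26 ± 0.15 and was not called without the block (95% interval -0.07 to 0.59).

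**Figure D4:**
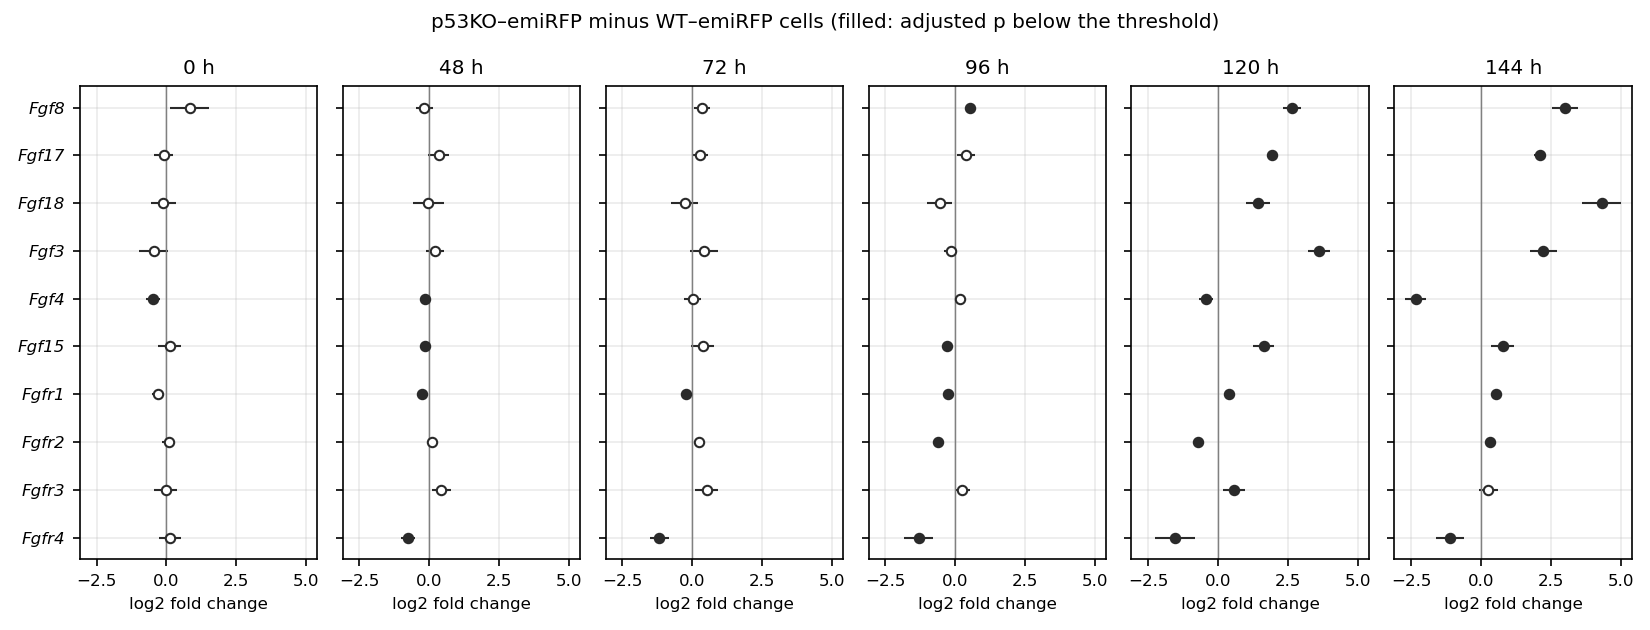
Log2 fold change of p53KO–emiRFP minus WT–emiRFP cells for the 10 members from 0 to 144 h; points are edgeR estimates, bars 95% confidence intervals, and filled points have an adjusted p below 0.05. Fgf3, Fgf8, Fgf17, Fgf15 and Fgf18 lie right of 0 at 120 and 144 h, and Fgfr4 lies left of 0 from 48 h on.

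The difference between genotypes changed from 72 to 120 h for 7 members, in a test of that change that called 37.7% of all genes. It moved upwards for Fgf3 (3.18 ± 0.36), Fgf8 (2.27 ± 0.21), Fgf18 (1.69 ± 0.42), Fgf17 (1.67 ± 0.21), Fgf15 (1.25 ± 0.24) and Fgfr1 (0.59 ± 0.09), and downwards for Fgfr2 (-0.94 ± 0.12). For Fgfr4 the change was -0.36 ± 0.36 with an interval from -1.09 to 0.36, and it was not called.

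Markers of other cell populations differed between the genotypes as well. Calls covered 51% of all genes at 120 h and 65.3% at 144 h, so a count of markers near these shares is no result about a list. The 7 markers of caudal epiblast and tailbud summed to 42080 to 47550 normalized counts in p53KO–emiRFP and 10730 to 13710 in WT–emiRFP cells at 120 h, and to 14080 to 14520 against 1111 to 1495 at 144 h. All 7 were called higher at both times, led at 120 h by Wnt3a (3.37 ± 0.17), T (2.79 ± 0.13) and Evx1 (2.35 ± 0.16). Of 7 paraxial mesoderm markers 4 were called higher at 120 h, a share near that of all genes, and 7 at 144 h, and their sum at 120 h was 47990 to 60440 against 13900 to 18520. The 5 naive pluripotency markers, which include Nanog (-2.57 ± 0.12 at 144 h) and Zfp42 (-2.66 ± 0.13), were all lower at both times. They summed to 9095 to 9838 against 52650 to 60450 at 120 h and to 11040 to 16830 against 68700 to 80740 at 144 h. The haematoendothelial and cardiac markers, with 1 of 7 higher and 4 lower at 120 h, summed to 561.9 to 797.3 against 1891 to 2213. The neural markers summed to 9583 to 11470 against 2788 to 3968 at 144 h, with 5 of 7 higher, again near the share of all genes, and to the overlapping 4176 to 4523 against 3478 to 4936 at 120 h. Markers listed for endoderm and notochord were Sox17, Foxa2, Cer1, Shh and Noto. Their sums were 581.4 to 859.8 against the overlapping 389.2 to 600.9 at 120 h, and 534.4 to 653.3 against 193 to 396.3 at 144 h. No marker of these 6 lists was at 0 in either group at 120 or 144 h. Their part in the differences of the ligands and receptors was not tested.

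Genes that answer FGF moved in both directions at 120 h. Of 15 genes of ERK feedback and response, 11 were called higher and 2 lower in p53KO–emiRFP cells, with a median of 0.38 beside 0.05 over all genes tested, 51% of which were called. The inhibitors Spred3 (1.18 ± 0.11), Spry4 (1.05 ± 0.14) and Il17rd (0.99 ± 0.10) were higher, and the transcription factor Etv5 (-0.56 ± 0.05) and the inhibitor Spry1 (-0.33 ± 0.05) were lower. At 144 h 7 were higher and 2 lower, a share called near the 65.3% of all genes, with a median of 0.19 beside 0.01. These included Spred3 (1.59 ± 0.14), Flrt3 (1.42 ± 0.11) and Il17rd (0.96 ± 0.10) higher and Etv5 (-1.23 ± 0.10) and Spry4 (-0.74 ± 0.12) lower. Spry4 was therefore called on opposite sides at the 2 times.

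Of 23 co-receptors and matrix modifiers tested, 15 were higher and 5 lower at 120 h, with a median of 0.64 beside 0.05 over all genes, 51% of which were called. Fgfbp3, a carrier of FGF (1.70 ± 0.16), and the heparan sulphate proteoglycans Gpc3 (1.31 ± 0.10) and Sdc2 (0.99 ± 0.10) led the rises. The co-receptor Klb (-2.27 ± 0.29), the carrier Fgfbp1 (-1.85 ± 0.14) and the proteoglycan Sdc4 (-1.85 ± 0.10) led the falls. Of 19 adaptors and kinases, 3 were higher and 5 lower with a median of -0.02. Of 12 other secreted FGFs 7 passed the low-count filter, and 3 were higher and 1 lower. Beside the share of all genes called, these counts are no result about either list. The called FGFs were Fgf9 (2.70 ± 0.18), Fgf2 (0.93 ± 0.22) and Fgf10 (0.86 ± 0.25), and the epiblast ligand Fgf5 (-1.62 ± 0.26).

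WT–mCherry cells were next compared by neighbour. No member was called beside p53KO against beside WT cells at 48, 72 or 96 h in edgeR, where 0.0735%, 0.559% and 3.93% of all genes were called. At an unadjusted p under 0.05 there were 0, 3 and 3 members, and DESeq2 called 0, 1 and 0. With the replicate block Fgf4 was called lower at 72 h (-0.48, adjusted p = 0.0057). At 96 h the block called Fgf8 (0.23, adjusted p = 0.008) and Fgfr4 (0.53, adjusted p = 0.0234) higher and Fgf18 (-0.44, adjusted p = 0.0453) and Fgfr2 (-0.20, adjusted p = 0.046) lower.

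At 120 h 4 members were called, 3 higher and 1 lower beside p53KO cells, against 5.95% of all genes. Fgf3 had 481, 698 and 509 normalized counts beside p53KO and 257, 199.7 and 169 beside WT cells (1.43 ± 0.18, adjusted p = 0.000583). Fgf8 had 2118, 2746 and 1760.1 against 1323, 1176 and 1034 (0.91 ± 0.14, adjusted p = 0.00233), and Fgf17 had 1572, 1926 and 1519 against 1030.5, 949 and 1017 (0.74 ± 0.08, adjusted p = 0.000331). For these 3 ligands the groups were separate. Fgfr2 was lower, with 1884, 1611 and 2103 against 2357, 2323 and 2374 (-0.33 ± 0.09, adjusted p = 0.0377). The groups of Fgf15, Fgf18 and Fgfr2 were separate too. Fgf15 and Fgf18 differed by 0.59 ± 0.17 and 0.55 ± 0.19 and were not called without the replicate block. Fgf8 and Fgfr2 lost their calls without replicate 1 (adjusted p = 0.0691 and 0.356), and Fgfr2 also without replicate 2 (adjusted p = 0.113). The change of this difference from 72 to 120 h was called for Fgf3 (1.53 ± 0.39), Fgf17 (1.15 ± 0.21) and Fgf8 (0.93 ± 0.21), against 0.648% of all genes. Without replicate 1, 2 or 3, 1, 0 and 1 members were called in that test.

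At 144 h 5 members were called, 3 higher and 2 lower, against 25.5% of all genes. Fgfr4 had 397, 501 and 254 normalized counts beside p53KO and 167, 193 and 138 beside WT cells (1.20 ± 0.22, adjusted p = 0.00193). Fgfr3 had 476, 339.6 and 366 against 747, 740.0 and 647 (-0.85 ± 0.15, adjusted p = 0.00163), and Fgfr2 had 3484, 3472 and 3406 against 4783, 4512 and 4590.1 (-0.42 ± 0.06, adjusted p = 0.000274). These 3 receptors had separate ranges, with Fgfr4 higher and the other 2 lower beside p53KO cells. With the block Fgfr1 was also called (-0.14, adjusted p = 0.0283). Fgf17 had 336, 280.3 and 287 against 207, 239 and 215 (0.45 ± 0.10, adjusted p = 0.00601). Fgf18 had 135, 49.8 and 91.9 against 62.8, 36.5 and 45.3 (0.94 ± 0.32, adjusted p = 0.0452), and these groups overlapped. Without replicate 1 both ligands lost their calls (adjusted p = 0.0961 and 0.116), and Fgf18 also without replicate 3 (adjusted p = 0.2).

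RNA that marks the emiRFP clones was found in sorted WT–mCherry cells and differed with the neighbour. The histone gene H2bc14 had 6.20 to 8.21 normalized counts in WT–mCherry mES cells and 5967 to 7103 in p53KO–emiRFP cells at 120 h. In WT–mCherry cells of 120 h it had 214 to 454 beside p53KO and 78.3 to 125 beside WT cells. The share of emiRFP RNA estimated from it beside p53KO cells was 7.35%, 2.91% and 6.55% at 120 h and 16.8%, 2.26% and 9.10% at 144 h. Beside WT cells it was 1.99%, 1.54% and 1.06% and 2.01%, 0.0919% and 1.59%. Estimated from H2bc21, which has fewer counts, it was 10.6%, 8.25% and 25.0% beside p53KO cells at 120 h and 19.6%, 2.73% and 19.4% at 144 h. Beside WT cells H2bc21 gave 5.02%, 2.90% and 5.41% at 120 h and 6.09%, 1.42% and 6.82% at 144 h, above the shares from H2bc14 in each replicate, and at 144 h the groups overlapped.

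The share is the mark in WT–mCherry cells over that in the same-numbered emiRFP library of the same kind of gastruloid, each less its mean in WT–mCherry mES cells, and that share of the emiRFP counts was subtracted. After subtraction the calls of the ligands depended on the mark. With H2bc14, Fgf3, Fgf8 and Fgf17 kept their calls at 120 h with 1.26 ± 0.20, 0.82 ± 0.15 and 0.65 ± 0.10 (adjusted p = 0.00261, 0.00829 and 0.00186). With H2bc21 they had 0.85 ± 0.32, 0.61 ± 0.22 and 0.43 ± 0.16 and lost their calls (adjusted p = 0.166, 0.138 and 0.169). Fgfr2 at 120 h lost its call under both (adjusted p = 0.0632 and 0.188). At 144 h Fgf17 and Fgf18 changed sign, to -0.39 and -0.92 with H2bc14 and to -1.10 and -2.09 with H2bc21. Fgf8 at 144 h, not called before subtraction (0.28 ± 0.21), was called lower after it, at -0.58 and -1.57 (adjusted p = 0.0043 and 0.0488). In some libraries beside p53KO cells at 144 h the amount to subtract reached the whole count, so no counts were left. This held for Fgf18 in replicate 1 under either mark and in replicate 3 with H2bc21. It also held for Fgf17 and Fgf8 in replicate 3 with H2bc21. The sizes and calls of these changes rest on that floor and are no estimate. With H2bc14 Fgf17 and Fgf8 kept counts in every library. The receptors called at 144 h kept their calls under both, with Fgfr4 at 1.31 ± 0.22 and 1.37 ± 0.22, Fgfr3 at -0.87 ± 0.15 and -0.90 ± 0.16, and Fgfr2 at -0.46 ± 0.06 and -0.49 ± 0.06.

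**Figure D5:**
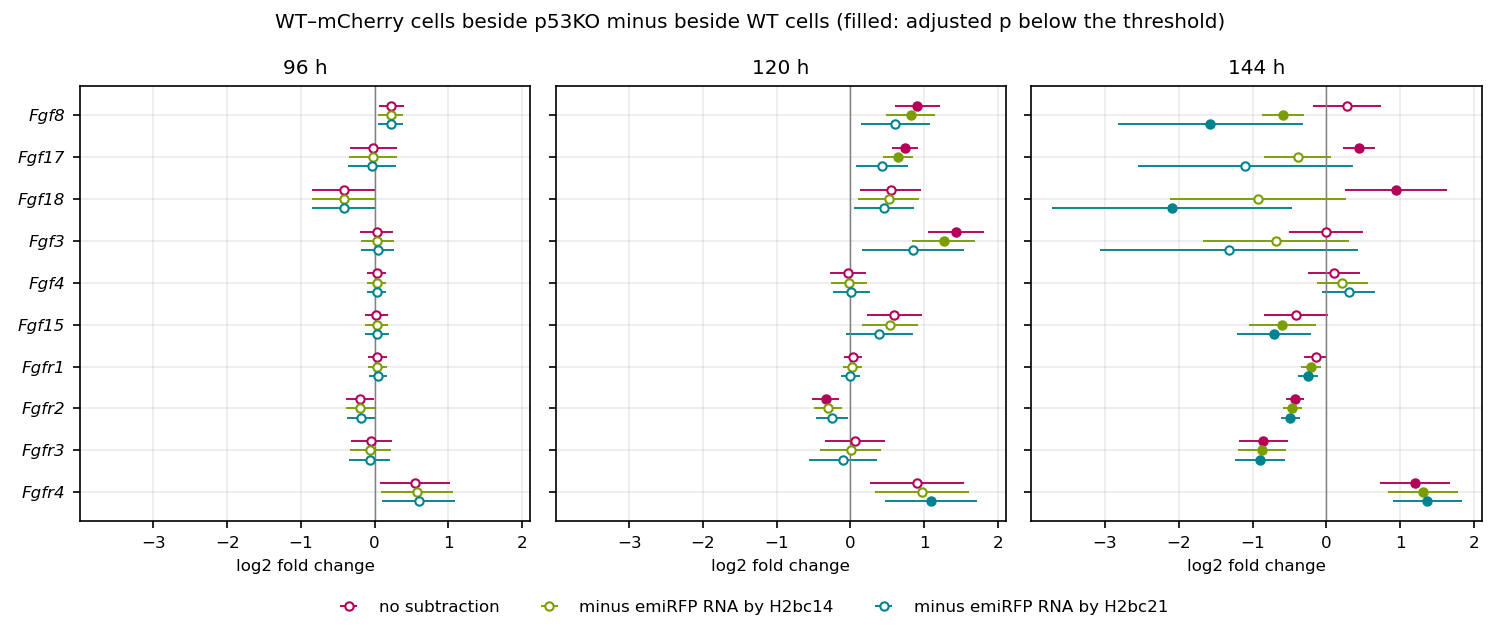
Log2 fold change of WT–mCherry cells beside p53KO minus beside WT cells for the 10 members, without subtraction and after subtraction of emiRFP RNA estimated from H2bc14 or H2bc21; bars are 95% confidence intervals and filled points have an adjusted p below 0.05. At 144 h Fgf17 and Fgf18 change side with the subtraction, and Fgfr2, Fgfr3 and Fgfr4 do not. The subtraction left some library at 144 h without counts of Fgf18 under either mark, and of Fgf17 and Fgf8 with H2bc21.

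Markers differed with the neighbour as well, where 5.95% of all genes were called at 120 h and 25.5% at 144 h. In WT–mCherry cells the caudal epiblast and tailbud markers summed to 21430 to 26370 beside p53KO and 14730 to 17720 beside WT cells at 120 h, with 5 of 7 called higher, and to 3583 to 4152 against 1365 to 1796 at 144 h, with 6 of 7. Wnt3a (1.34 ± 0.16), Evx1 (1.20 ± 0.16) and T (0.90 ± 0.12) led at 120 h. Paraxial mesoderm markers had 4 of 7 called higher at 120 h, and their sum was 28960 to 35880 against 17470 to 23470. At 120 h the sums beside p53KO and beside WT cells were also separate for other lists. Endoderm and notochord markers had 1040 to 1401 against 532.5 to 734.7, and naive pluripotency markers 33980 to 37690 against 41060 to 50280. Haematoendothelial and cardiac markers had 644.7 to 948.2 against 1258 to 1375, although their median difference was 0.10. At 144 h 5 of 7 neural markers were called lower, with sums of 3603 to 6114 against 6142 to 7972. These marker values are before any subtraction of emiRFP RNA. At 144 h the caudal epiblast and tailbud markers summed to 14080 to 14520 in p53KO–emiRFP cells, so emiRFP RNA may add to their sums beside p53KO cells. The part of these markers in the differences of ligands and receptors was not tested.

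Most genes of ERK feedback and response were lower beside p53KO cells at 144 h, again before subtraction of emiRFP RNA. At 120 h 0 of 15 were higher and 1 lower, with 5.95% of all genes called. At 144 h 11 of 15 were lower and 0 higher, with a median of -0.43 beside -0.03 over all genes, of which 25.5% were called in either direction. The transcription factor Etv1 (-1.06 ± 0.18), the ERK phosphatase Dusp6 (-0.95 ± 0.07) and the inhibitor Spry4 (-0.82 ± 0.13) led them. Of 22 co-receptors and matrix modifiers 1 was higher, Sdc4 (0.92 ± 0.08), and 12 were lower, led by the sulphotransferase Hs6st2 (-0.83 ± 0.09), the proteoglycan Sdc3 (-0.81 ± 0.13) and the sulphatase Sulf1 (-0.67 ± 0.07). Of 7 other secreted FGFs tested for the neighbour at 96 h, Fgf1 was the 1 called, higher by 0.57 ± 0.15. At 120 h 1 of 7 was higher, Fgf9 (0.75 ± 0.17), and 1 lower, Fgf5 (-1.21 ± 0.25). At 144 h 2 of 8 were lower, Fgf5 (-1.69 ± 0.29) and Fgf10 (-1.17 ± 0.25). All 12 summed to 2055 to 2536 beside p53KO against 1644 to 2030 beside WT cells at 72 h, 512.2 to 657.5 against 441.2 to 485.2 at 96 h, 334.5 to 380.7 against 363.1 to 400.4 at 120 h and 347.1 to 365.5 against 473.7 to 589.3 at 144 h. These ranges overlapped at 120 h, were higher beside p53KO cells at 72 and 96 h, and were lower there at 144 h.

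The WT clones of WT + WT gastruloids differed in some members. Between WT–mCherry and WT–emiRFP cells 1, 2, 2, 0, 1 and 4 members were called at 0, 48, 72, 96, 120 and 144 h, against 11.1%, 8.89%, 7.64%, 2.15%, 1.24% and 23.8% of all genes. These comparisons share the WT–emiRFP libraries with those of the genotype and, after 0 h, the WT–mCherry libraries with those of the neighbour. Fgf4 was higher in WT–mCherry cells at 72 h, with 828, 1032 and 966 normalized counts against 521, 655 and 460.2 (0.79 ± 0.14, adjusted p = 0.00332), and lower at 144 h, with 2774, 3028 and 3533 against 3750.2, 4190.2 and 5404 (-0.52 ± 0.16, adjusted p = 0.0354). Fgf8 at 120 h had 1323, 1176 and 1034 against 766, 639 and 681 (0.76 ± 0.15, adjusted p = 0.0235). Each of these 3 calls was lost without replicate 1, that of Fgf4 at 144 h also without replicate 2 and that of Fgf8 also without replicate 3. At 144 h Fgf17 differed by -0.73 ± 0.10, Fgfr2 by 0.49 ± 0.06 and Fgfr3 by 0.88 ± 0.15. At 96 h edgeR gave 1 member with an unadjusted p under 0.05, and DESeq2 called 0. The replicate block raised the counts at 48, 96, 120 and 144 h to 5, 1, 6 and 6.

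Over the 23 group means, the genes whose pattern was nearest to that of a member were sought among 15935 genes. The Pearson correlations are a description, since the groups share clones and experiments. The nearest genes to Fgf8 were Wnt5b (0.983), Axin2 (0.982) and Lrrk1 (0.974). Those of Fgf17 were Tha1 (0.956), AI597479 (0.941) and Svopl (0.934), and those of Fgf18 Tenm4 (0.939), Upk1a (0.894) and Myom1 (0.878). Fgf3 was nearest to Msi2 (0.935), Peli3 (0.934) and Sv2b (0.930), Fgf4 to Tgif1 (0.962), S100a16 (0.919) and Asgr2 (0.886), and Fgf15 to Ptprn (0.873), Tbxa2r (0.866) and 1500011B03Rik (0.864). Among receptors, Fgfr1 was nearest to Eme2 (0.980), Zfp612 (0.970) and Bloc1s6 (0.968), and Fgfr2 to Dagla (0.951), Parm1 (0.940) and Adgrl3 (0.939). Fgfr3 was nearest to Chpt1 (0.946), Olfm2 (0.929) and Nuak1 (0.925), and Fgfr4 to Plekha7 (0.914), Gdf15 (0.912) and Patl2 (0.910). Between members the correlation was 0.912 for Fgf8 with Fgfr1, 0.804 for Fgf17 with Fgf18, 0.712 for Fgf3 with Fgf15 and -0.617 for Fgf4 with Fgf8.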

How the data were processed

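RNA of 69 libraries was sequenced, and the authors deposited 1 table of raw counts per gene, with no normalization. Per the labels, the submitters' processing notes name STAR 2.7.11b, Trim Galore 0.6.7 and GRCm38.p6. Whether the counting used strand is not given in the sources used here. Counts were divided by median-of-ratios size factors over all libraries. Genes were filtered with filterByExpr and tested with edgeR 4.0.16 (quasi-likelihood, R 4.3.3, limma 3.58.1), with 1 fit of 12 libraries per time point (9 at 0 h) and 1 fit of all 69 for steps and changes over time. P-values were adjusted by Benjamini-Hochberg over all genes tested, with a threshold of 0.05. The code was tested on simulated data. Alternatives were DESeq2 1.42.0, TMM, no filter, other sample sets, a replicate block, leaving out each replicate, and, for the neighbour, subtraction of emiRFP RNA estimated from histone marks.

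The study states that replicates are independent experiments, and same-numbered libraries were checked for shared deviations from their group means over genes with a mean count of at least 50. Every pair correlated above 0.1 for the genotype at all times (lowest 0.118), for the neighbour except at 120 h (lowest 0.0717) and for the clones except at 0 h (0.0865) and 72 h (0.0377). The members and gene lists were chosen with earlier results of these data known. All members are named. Of other lists, up to 3 rises and 3 falls of the largest size that had 1 direction in each same-numbered pair could be named, and 3 genes of most similar pattern for each member.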

Additional observations from a re-analysis of the deposited data

Results flagged for a closer look

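The difference between genotypes or between neighbours was not the same at 72 and 120 h for 10 results, each tested as the difference at 120 h minus that at 72 h in edgeR. For p53KO–emiRFP minus WT–emiRFP cells this change was 3.18 for Fgf3 (adjusted p = 1.42e-10), 2.27 for Fgf8 (adjusted p = 2.69e-13), 1.69 for Fgf18 (adjusted p = 0.000973), 1.67 for Fgf17 (adjusted p = 1.73e-09) and 1.25 for Fgf15 (adjusted p = 2.08e-05). Among receptors it was 0.59 for Fgfr1 (adjusted p = 6.94e-07) and -0.94 for Fgfr2 (adjusted p = 6.46e-09). These 7 were called whichever replicate was left out.

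For WT–mCherry cells beside p53KO minus beside WT cells the change was 1.53 for Fgf3 (adjusted p = 0.0379), 1.15 for Fgf17 (adjusted p = 0.00111) and 0.93 for Fgf8 (adjusted p = 0.0126). At least 2 of these 3 lost their calls whichever replicate was left out. The comparisons of genotype and neighbour come from the same experiments.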

How the results depend on the processing

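Of 257 counts of members called under an alternative, 208 stayed within 1.5 times the value reported, and of 1626 log2 differences of members called under any setting 1457 kept their direction and their side of the threshold. The 6 that changed sign were at 144 h for the neighbour after subtraction of emiRFP RNA: with H2bc14 Fgf17 -0.39, Fgf18 -0.92 and Fgf8 -0.58, and with H2bc21 -1.10, -2.09 and -1.57. For Fgf18 with H2bc14, and for all these ligands with H2bc21, the subtraction left some library without counts. Those values rest on that floor. Among 101 differences called under no setting, 39 changed sign at least once, all of at most 0.27. Counts of called genes in the other lists, such as markers and ERK genes, moved more often. Of 2124 such counts under an alternative, 1603 stayed within 1.5 times the value reported and 521 did not. With the replicate block 137 stayed and 91 did not.

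Between genotypes, all 23 groups in 1 fit called 2 members at 0 h and 2 at 48 h, the compared groups alone 2 at 48 h, and no low-count filter 2, 2, 5 and 8 at 0, 48, 72 and 96 h. For the neighbour, no filter called 1, 2 and 7 at 72, 96 and 120 h, DESeq2 1 at 72 h, the compared groups alone 1 at 96 h, and H2bc21 subtraction 1 at 120 h. The member called with that subtraction was not among those called at 120 h without it. For the clones, 1 fit called 0 at 48 h and 2 at 120 h, the compared groups alone 1 at 48 h, DESeq2 1 at 48 h and 3 at 120 h, and no filter 3 at 120 h. The cause was not tested.

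The replicate block called 7 and 9 members at 72 and 96 h between genotypes, 1 and 4 at 72 and 96 h for the neighbour, and 5, 1 and 6 at 48, 96 and 120 h for the clones. It added 33 calls in all and removed 0. For the neighbour at 120 h, where same-numbered libraries correlated at 0.0717, 0.626 and 0.577, it called 7 members, adding Fgf15, Fgf18 and Fgfr4.

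Leaving out 1 replicate gave 0 to 1, 2 to 2, 1 to 4 and 3 to 5 members from 0 to 96 h between genotypes. It gave 0 to 1, 2 to 4 and 3 to 5 at 96, 120 and 144 h for the neighbour, and 0 to 1 for its change from 72 to 120 h. For the clones it gave 0 to 1 at 0, 48 and 120 h and 0 to 3 at 72 h. Few counts limit Fgf3, Fgf18 and Fgf8 at their lowest times, where 11 to 19 raw counts were the lowest values.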
